A study of Mus musculus with 44 samples.

Results

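Hippocampal RNA of mice labelled MR was compared between 15 and 5 months of age. The 15M-MR group held 8 libraries of mice of 15 months and the 5M-MR group 7 libraries of mice of 5 months, which are 15 of the 44 libraries of the series. All were from C57BL/6J mice, and the design text counts as many mice as libraries in both groups. MR is taken from the series title to stand for methionine restriction, a diet poor in the essential amino acid methionine. CD is taken to be its control diet, and the control-diet groups 15M-CD (8 libraries, 15 months) and 5M-CD (6 libraries, 5 months) serve as a second comparison of the same ages. The sex of the mice, the hour of sampling and the length of feeding are not given in the labels. The deposited values are FPKM, fragments scaled to transcript length and library size, of loci assembled from the reads. The loci described carry a gene symbol and reached 1 FPKM in 6 or more of these 15 libraries, which 9601 of the 13218 in the table did. A further 430 loci with a symbol did not reach this level. Of the 9601, 8763 carry a single gene and 820 carry several gene symbols, written here with a slash, while in 18 a date stands in place of the symbol. Of the markers listed for dentate granule cells 12 of 14 genes had a locus at this level, for CA1 pyramidal cells 8 of 9 and for CA3 pyramidal cells 7 of 11. Markers listed for other brain regions also had loci, with 6 of 12 genes for neocortex and 4 of 10 each for thalamus and habenula and for striatum. These counts do not test the tissue named in the labels.

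The hippocampus lays down new memories, and its neurons switch on immediate early genes such as Fos and Egr1 within minutes of activity. These genes encode transcription factors and synaptic proteins, and many are switched on by CREB, a factor that binds a short DNA element in their promoters. Scarcity of an amino acid acts on cells through the kinase GCN2, which favours translation of the transcription factor ATF4 and so raises genes of amino acid synthesis and uptake. In rodents methionine restriction is known to raise the liver hormone FGF21, which acts on cells that carry an FGF receptor together with the co-receptor beta-Klotho. Microglia, the resident immune cells of the brain, and oligodendrocytes, which make myelin, are known to change with age.

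The libraries of the 2 ages also differed in whole-library measures. The share of the FPKM sum in loci without a gene symbol was 6.23% ± 1.21 in 15M-MR and 4.20% ± 0.617 in 5M-MR (SD, n = 8 and 7, exact permutation test, 2-sided, adjusted p = 0.00186 over 6 measures). The mitochondrial ribosomal RNA loci, which also take up mitochondrial messenger RNAs in this assembly, held 6.76% ± 1.10 in 15M-MR and 4.11% ± 0.779 in 5M-MR (SD, exact permutation test, adjusted p = 0.00186). Loci listed at 0 numbered 672 ± 63.6 in 15M-MR and 516 ± 35.0 in 5M-MR (SD, exact permutation test, adjusted p = 0.0014). For each library the deviation of log2(FPKM + 1) from the mean of each locus over all 44 libraries was set against log2 transcript length. Its slope was -0.0342 ± 0.0601 in 15M-MR and 0.0901 ± 0.0678 in 5M-MR (SD, exact permutation test, adjusted p = 0.00503). Long transcripts thus stood lower against short ones in the older group. Ttr, the main transcript of the neighbouring choroid plexus, ranged from 30.1 to 900 FPKM (median 83.7) in 15M-MR and from 7.72 to 3036 FPKM (median 110) in 5M-MR, with 3 libraries of 5M-MR above 1000 FPKM. All 15M-MR libraries ran on lane 4, while 5M-MR libraries ran on lanes 1 (2 libraries) and 2 (5 libraries), so lane and group share no library and cannot be told apart within this pair.

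**Figure D1:**
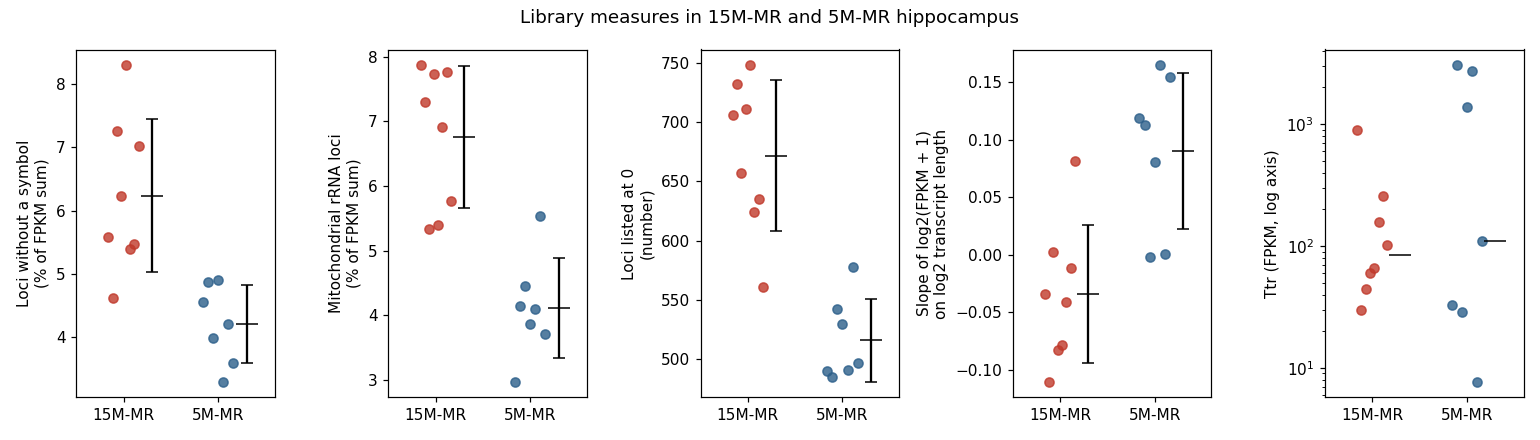
Library measures of the 8 15M-MR and 7 5M-MR libraries, each point 1 library, with mean and SD as black bars (median for Ttr, on a log axis). The older group is higher in loci without a symbol, in mitochondrial rRNA loci and in loci at 0, and lower in the slope on transcript length, while Ttr overlaps between the groups. The slope is that of deviations from the mean of each locus over all libraries of the series.

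Under MR, 1215 of the 9601 loci (12.7%) differed between 15 and 5 months at an adjusted p under 0.05 (limma on log2(FPKM + 1), Benjamini-Hochberg over all 13009 loci tested). Of these, 434 (4.52%) were higher and 781 (8.13%) lower at 15 months, and differences below are 15M-MR minus 5M-MR on this scale, which understates changes of genes with low FPKM. Of all 13009 loci tested, 11.9% were higher and 6.46% lower (18.3% in all), and of the 3051 without a symbol 36.3% were higher and 1.31% lower (37.7% in all). The median difference over the 9601 loci was -0.11. Among loci whose groups did not overlap, 62 (0.646%) lay wholly higher and 319 (3.32%) wholly lower in 15M-MR. The counts depended on single libraries: without 5M-MR library 6 they were 221 higher and 502 lower, without 5M-MR library 8 they were 231 and 502, and without 15M-MR library 5 the higher ones numbered 275. 5M-MR libraries 6 and 8 had the highest slopes on transcript length, 0.165 and 0.155. With the 5M-MR libraries of high Ttr (2, 5 and 6) left out, a setting added after the data were seen, 65 were higher and 143 lower. With lane as a factor, which the control-diet libraries make estimable, 1 locus was higher (0.0104%) and 7 lower (0.0729%), and 3 of the 112 called loci named below kept their call. The median difference over the 9601 loci in the lane fit was -0.13, which does not tell whether the called differences shrank. Among called loci, Ddit4 went from -0.68 to -0.09 and Gars from -0.37 to -0.14. Others did not shrink, with Egr4 going from -1.13 to -1.14 and Slc7a5 from -1.77 to -2.17. Within 5M-CD, 5 libraries ran on lane 1 and 1 on lane 4, so at 5 months the link between these lanes rests on 1 library. Of the other groups, 15M-CD ran on lanes 3 and 4, 18M-CD on lanes 2 and 3 and 18M-MR on lanes 1 and 3. The part of lane in the lost calls was not tested. With the share of loci without a symbol as a covariate, 453 were higher and 257 lower, so that the balance turned from mostly lower to mostly higher. In bulk RNA, fewer cells of a type and less RNA per cell cannot be told apart.

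The direction of a difference followed transcript length. Loci called higher had a median transcript length of 1156 bases and those called lower one of 4046 bases, against 3280 over all loci with a length. With the loci cut into 10 bins of equal size by length, the median difference in the shortest bin was 0.24 and 21.2% were called higher, while in the longest bin it was -0.28 and 13.4% were called lower. On the control diet the same bins had medians of 0.14 and -0.13. When a smooth trend on log2 transcript length was removed from each library, 146 of 8637 loci were higher (1.69%) and 429 lower (4.97%), against 268 and 528 where only loci with a length were fitted and adjusted, without the correction. In the fit of all 13009 loci, 375 (4.34%) and 716 (8.29%) of the 8637 were called, so the smaller set of loci accounts for part of the drop. The correction left medians of -0.07 in the shortest and -0.14 in the longest bin. Loci below that lost their call in the corrected values are named as such, and merged loci have no corrected value. The part of the library measures above in the length trend was not tested.

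**Figure D2:**
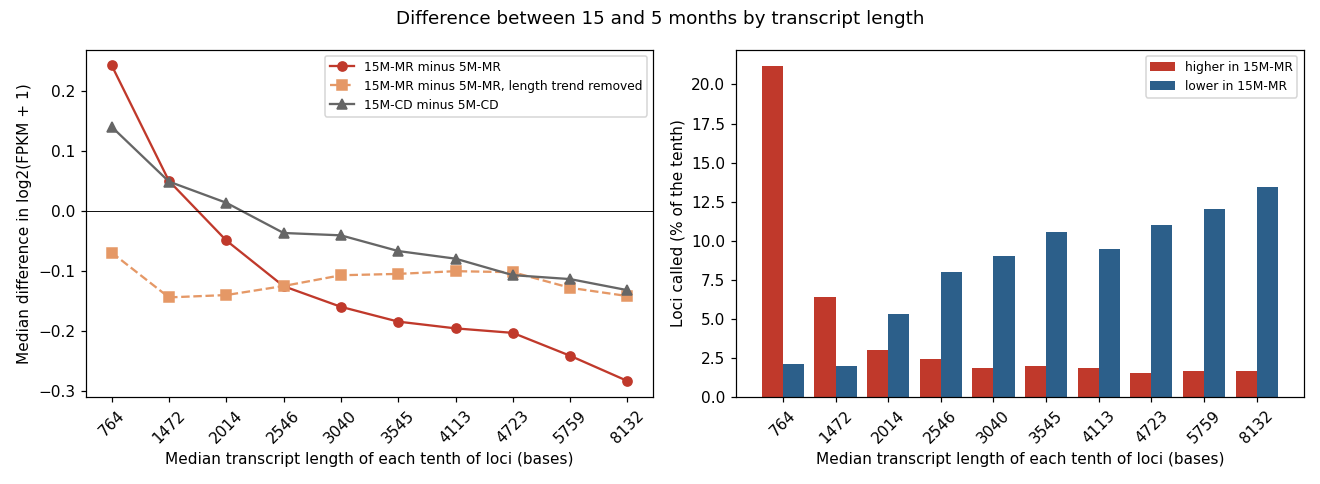
Left, the median difference between 15 and 5 months in each of 10 equal bins of loci by transcript length, for MR, for MR with the length trend removed and for the control diet; right, the share of each bin called higher (red) or lower (blue) in 15M-MR. The median falls with length under both diets, to -0.28 in the longest bin under MR, and lies between -0.07 and -0.14 in every bin once the trend is removed.

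The same ages on the control diet, in libraries that do not overlap with these, gave 7 loci higher (0.0729%) and 15 lower (0.156%) in 15M-CD than in 5M-CD. Of the 434 loci higher under MR, 418 had a difference above 0 on the control diet, and 6 were called there. Of the 781 loci lower under MR, 731 had one below 0 on the control diet, and 14 were called there. Over all 9601 loci, 4335 had a difference above 0 on the control diet and 5266 one below. Loci called higher were mostly short and those called lower mostly long, and both diets had the trend on transcript length. The part of that trend in the shared signs was not tested. No locus passed the test of the difference between the diets themselves, the interaction of diet with age in limma, while 300 (3.12%) had an unadjusted p under 0.05. A call under MR that is missing on the control diet is therefore not shown to be particular to MR.

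Of 23 loci of 22 immediate early genes, 8 fell at 15 months under MR, none rose and 15 did not pass the test, against 8.13% lower over all loci. Their median difference was -0.47 against -0.11 over all loci. Once the length trend was removed, 8 were again lower and none higher, against 4.97% and 1.69% over all loci. Fos, a partner in the AP-1 factor that neurons make on activity, lay between 2.21 and 3.12 FPKM (median 2.74) in 15M-MR and between 4.75 and 8.48 FPKM (median 7.37) in 5M-MR. The groups did not overlap (difference -1.002, SE 0.144, adjusted p = 3.26e-05, n = 8 and 7 here and below). Egr4, a zinc finger factor of the Egr family, lay between 4.90 and 11.0 FPKM (median 8.21) in 15M-MR and between 14.3 and 23.5 FPKM (median 19.9) in 5M-MR, again with no overlap (-1.13, SE 0.181, adjusted p = 0.00013). Nr4a1, an orphan nuclear receptor, lay between 6.02 and 10.2 FPKM (median 7.05) in 15M-MR and between 15.2 and 22.5 FPKM (median 16.5) in 5M-MR (-1.09, SE 0.186, adjusted p = 0.000331). Every 15M-MR library lay below every 5M-MR library for these 3 genes and for Egr1.

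The start regions of Fos, Egr4 and Nr4a1 are shown because these 3 genes moved together and their promoters hold the core of the CREB element, TGACG, or CGTCA where it lies on the other strand. Each sequence is the 250 bases before the transcription start from RefSeq on GRCm38.p6, 5′ to 3′ on the strand of the gene, with each core in capitals. Fos lies at chr12:85473640-85473889 on the plus strand with 2 cores, Egr4 at chr6:85513590-85513839 on the minus strand with 2, and Nr4a1 at chr15:101266596-101266845 on the plus strand with 4.
Fos: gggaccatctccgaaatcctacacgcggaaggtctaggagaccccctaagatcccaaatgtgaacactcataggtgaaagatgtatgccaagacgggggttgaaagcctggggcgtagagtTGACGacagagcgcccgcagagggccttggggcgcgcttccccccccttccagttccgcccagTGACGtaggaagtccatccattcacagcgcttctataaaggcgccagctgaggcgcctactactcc
Egr4: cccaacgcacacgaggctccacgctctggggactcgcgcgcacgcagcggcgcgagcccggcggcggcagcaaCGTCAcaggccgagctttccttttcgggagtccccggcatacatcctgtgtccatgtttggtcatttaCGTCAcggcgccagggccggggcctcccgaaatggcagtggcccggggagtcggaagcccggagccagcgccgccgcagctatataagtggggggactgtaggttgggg
Nr4a1: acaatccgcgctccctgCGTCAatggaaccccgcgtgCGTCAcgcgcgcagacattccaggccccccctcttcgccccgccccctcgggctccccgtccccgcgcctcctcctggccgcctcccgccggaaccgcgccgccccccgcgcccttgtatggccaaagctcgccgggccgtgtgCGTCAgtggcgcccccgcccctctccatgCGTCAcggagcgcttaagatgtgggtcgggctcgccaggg
Of 32851 mouse promoters in the table, 17.8% held at least 1 core in this window, and of 6299 matched genes of the comparison 33.0% did. Of the 8 immediate early genes called lower 5 had a promoter in the table and 4 of these held one, and of the 14 not called 13 had a promoter and 7 held one. A match of 5 letters is a description and not a binding site.

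Egr1, a factor used as a marker of active neurons, lay between 14.6 and 24.4 FPKM (median 17.1) in 15M-MR and between 36.9 and 57.1 FPKM (median 41.8) in 5M-MR (-1.26, SE 0.204, adjusted p = 0.000148). Junb, an AP-1 partner of Fos, had a median of 21.5 FPKM in 15M-MR and 44.001 FPKM in 5M-MR with a slight overlap (-0.84, SE 0.152, adjusted p = 0.000713). Arc, which moves glutamate receptors away from synapses, had medians of 22.7 FPKM in 15M-MR and 49.0 FPKM in 5M-MR and overlapped (-0.90, SE 0.224, adjusted p = 0.00741). All 15M-MR libraries lay below the 5M-MR mean for these 3 genes. The smaller calls were Ier2 (-0.40, adjusted p = 0.0266) and Gadd45b (-0.42, adjusted p = 0.0462). Ier2 lost its call without 15M-MR library 6 or 5M-MR library 4 (adjusted p up to 0.0522), and Gadd45b without any 1 of 12 of the 15 libraries (up to 0.0988).

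On the control diet 4 of the 23 loci were called lower against 0.156% of all loci. Fos had a median of 3.73 FPKM in 15M-CD and 8.65 FPKM in 5M-CD (-0.94, adjusted p = 0.000315), Nr4a1 differed by -0.88 (adjusted p = 0.0207), Arc by -1.03 (adjusted p = 0.0259) and Ier2 by -0.69 (adjusted p = 0.00362). Egr4 differed by -0.58 on the control diet (adjusted p = 0.303), and its test of the difference between diets gave an unadjusted p of 0.0411 and an adjusted p above 0.05.

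**Figure D3:**
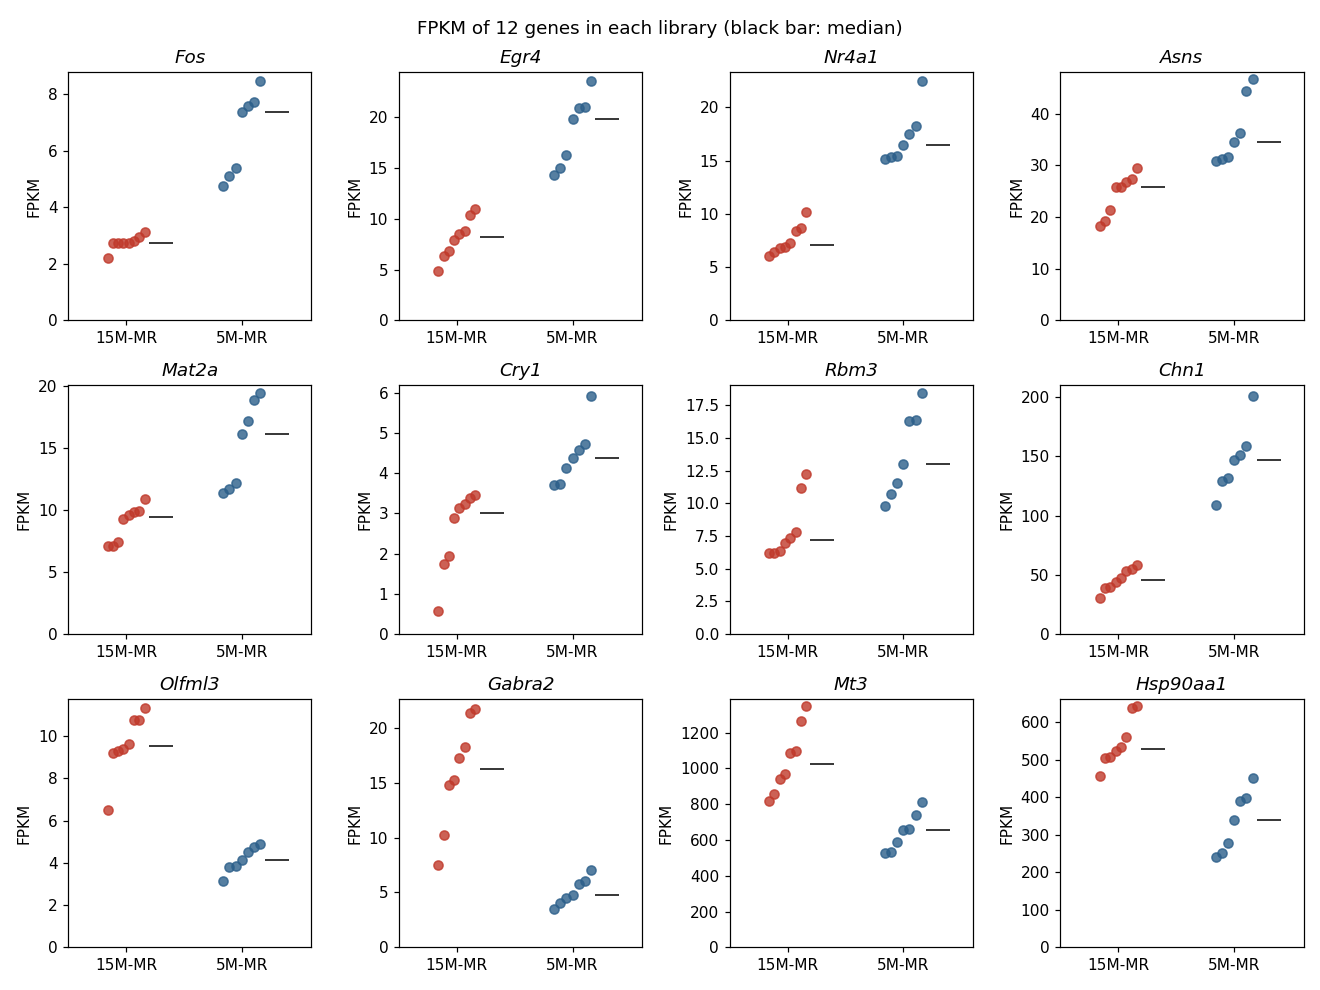
FPKM of 12 genes in each of the 8 15M-MR libraries (red, left) and 7 5M-MR libraries (blue, right), points in rising order and black bars at the median, with linear axes from 0. The groups do not overlap for Fos, Egr4, Nr4a1, Asns, Mat2a, Cry1, Chn1, Olfml3, Gabra2, Mt3 and Hsp90aa1, and overlap for Rbm3.

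Of 10 loci of genes known to rise with glucocorticoids, the stress hormones of the adrenal gland, 5 were lower and none higher (median -0.37), against 8.13% lower over all loci. In the corrected values 4 were lower, against 4.97%, and with the no-symbol share as a covariate 2 were. The 2 receptors of these hormones did not pass. Sgk1, a kinase of ion transport, had a median of 14.9 FPKM in 15M-MR and 26.4 FPKM in 5M-MR, with ranges that overlapped (-0.83, SE 0.251, adjusted p = 0.0218). Cdkn1a, an inhibitor of cell division, had medians of 5.19 FPKM in 15M-MR and 11.3 FPKM in 5M-MR and overlapped (-0.95, SE 0.278, adjusted p = 0.0175). Both loci of Errfi1, a brake on the EGF receptor, were called (-0.54, adjusted p = 0.00542, and -0.85, adjusted p = 0.0107). Fkbp5, a co-chaperone of the glucocorticoid receptor, lay between 0.182 and 5.67 FPKM (median 0.475) in 15M-MR and between 1.11 and 7.89 FPKM (median 6.21) in 5M-MR (-1.26, SE 0.424, adjusted p = 0.0343). Its libraries were spread widely in both groups, and its call ended with the length trend removed (adjusted p = 0.0849) and without any 1 of 9 libraries (up to 0.0825). Sgk1 lost its call without 15M-MR library 3 or 5M-MR library 6 (up to 0.0624). Symbols on several loci, as for Errfi1, Cdkn1a and Fkbp5, are uncertain.

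Of 15 loci of the circadian clock 5 were called lower, none higher and 10 did not pass (median -0.48), against 8.13% lower over all loci. After the length correction 1 call, Cry1, stood, against 4.97% lower over all loci. Cry1, a repressor of the clock, lay between 0.579 and 3.45 FPKM (median 3.01) in 15M-MR and between 3.71 and 5.92 FPKM (median 4.37) in 5M-MR, with no overlap (-0.68, SE 0.17, adjusted p = 0.00778). Bhlhe40, another repressor, had medians of 17.3 FPKM in 15M-MR and 27.3 FPKM in 5M-MR, also with no overlap (-0.53, SE 0.158, adjusted p = 0.0207). Per2 (-0.75, adjusted p = 0.0294), Cry2 (-0.96, adjusted p = 0.0359) and Hlf (-0.41, adjusted p = 0.0466) were called with less margin, and leaving out single libraries ended these calls in 5, 4 and 11 of 15 cases (adjusted p up to 0.0732 for Per2, 0.0886 for Cry2 and 0.122 for Hlf). Rbm3, an RNA-binding protein that rises in the cold, had a median of 7.17 FPKM in 15M-MR and 13.02 FPKM in 5M-MR (-0.71, SE 0.18, adjusted p = 0.00801). The merged locus 1600002K03Rik/Cirbp, which holds the other cold-inducible RNA-binding protein, lay between 9.70 and 14.6 FPKM in 15M-MR and between 14.7 and 26.4 FPKM in 5M-MR (-0.78, SE 0.133, adjusted p = 0.00034). Both were also lower on the control diet, Rbm3 by -0.89 (adjusted p = 0.0128) and the Cirbp locus by -0.69 (adjusted p = 0.00777).

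Of 22 loci of the ATF4 response to amino acid scarcity, 8 were lower and 1 higher at 15 months under MR and 13 did not pass (median -0.30), against 8.13% lower and 4.52% higher over all loci. The length correction left 5 lower and 1 higher, against 4.97% and 1.69% over all loci. With the no-symbol share as a covariate 3 were lower and 1 higher. Asns, which makes asparagine, lay between 18.2 and 29.5 FPKM (median 25.8) in 15M-MR and between 30.9 and 46.7 FPKM (median 34.6) in 5M-MR, with no overlap (-0.57, SE 0.141, adjusted p = 0.00738). Slc7a1, which takes up cationic amino acids, had medians of 3.11 FPKM in 15M-MR and 4.96 FPKM in 5M-MR, with no overlap (-0.53, SE 0.138, adjusted p = 0.00966). Slc7a5, the light chain of the transporter of large neutral amino acids, methionine among them, lay between 0.365 and 16.05 FPKM in 15M-MR and between 14.9 and 22.03 FPKM in 5M-MR. In 15M-MR its libraries 4, 5, 7 and 8 stood at 2.02 FPKM or below and the other 4 between 10.8 and 16.05 FPKM (-1.77, SE 0.478, adjusted p = 0.0116). Its heavy chain Slc3a2 had medians of 11.9 FPKM in 15M-MR and 14.9 FPKM in 5M-MR (-0.40, adjusted p = 0.0413, ended without any 1 of 7 libraries; with the length trend removed, adjusted p = 0.107).

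Of the other ATF4 targets, Ddit4, which restrains the growth kinase mTOR, had medians of 5.52 FPKM in 15M-MR and 9.89 FPKM in 5M-MR (-0.68, SE 0.197, adjusted p = 0.0162). The transfer RNA synthetases for tryptophan, alanine and glycine were lower, Wars by -0.85 (adjusted p = 0.0239), Aars by -0.35 (adjusted p = 0.0263) and Gars by -0.37 (adjusted p = 0.0274). Wars lost its call without 15M-MR library 7, where it stood at 2.38 FPKM (-0.56, adjusted p = 0.0567), Aars without 5M-MR library 4 (0.0582) and Gars without any 1 of 4 libraries (up to 0.0716). In the corrected values Wars and Aars were not called (adjusted p = 0.0526 and 0.184). Nupr1, a stress-induced regulator of transcription, was the member that rose, with medians of 7.71 FPKM in 15M-MR and 3.44 FPKM in 5M-MR and an overlap of the groups (0.93, SE 0.22, adjusted p = 0.00609). No member of this list was called on the control diet, where Asns differed by -0.34 (adjusted p = 0.553) and Slc7a5 by -1.69 (adjusted p = 0.203). Tests of the difference between diets gave unadjusted p of 0.273 for Asns, 0.909 for Slc7a5 and 0.0477 for Nupr1, none of which passed after adjustment.

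Of 22 loci of methionine and one-carbon metabolism 2 were called, both lower (median -0.13), against 8.13% lower over all loci. With the no-symbol share as a covariate none was called. Mat2a, which makes S-adenosylmethionine, the methyl donor of the cell, from methionine, lay between 7.11 and 10.9 FPKM (median 9.43) in 15M-MR and between 11.3 and 19.5 FPKM (median 16.1) in 5M-MR. The groups did not overlap (-0.70, SE 0.177, adjusted p = 0.00791), and the call stood with the length trend removed (-0.63, adjusted p = 0.0166). The call ended with the no-symbol share or the mitochondrial rRNA share as a covariate, and without the 5M-MR libraries of high Ttr. The symbol Mat2a stands on a second locus that was not at the level required, which makes it uncertain. Gclc, the first enzyme of glutathione synthesis, had medians of 7.87 FPKM in 15M-MR and 11.2 FPKM in 5M-MR (-0.44, adjusted p = 0.0252), a call that ended with the length trend removed (adjusted p = 0.0637) and without any 1 of 3 libraries.

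Along the FGF21 pathway 3 of 15 loci were called, all lower (median -0.26), against 8.13% lower over all loci. All 3 act downstream of the receptors, and with the no-symbol share as a covariate 1 of them, Sos1, was called. Frs2, the docking protein of FGF receptors, had medians of 4.01 FPKM in 15M-MR and 5.81 FPKM in 5M-MR (-0.76, SE 0.203, adjusted p = 0.0111). Sos1, which activates Ras, had medians of 2.30 FPKM in 15M-MR and 4.28 FPKM in 5M-MR (-1.002, SE 0.252, adjusted p = 0.0079). Ptpn11, the phosphatase SHP2, had medians of 17.6 FPKM in 15M-MR and 24.2 FPKM in 5M-MR (-0.54, SE 0.157, adjusted p = 0.0166), and its call ended with the length trend removed (adjusted p = 0.0588). The transcripts of these 3 genes are long. Receptors did not pass the test. Fgfr1 had medians of 8.41 FPKM in 15M-MR and 10.3 FPKM in 5M-MR (-0.23, SE 0.153, adjusted p = 0.299). Fgfr2 had medians of 3.10 FPKM in 15M-MR and 2.07 FPKM in 5M-MR (0.36, SE 0.194, adjusted p = 0.181). Fgfr3 had medians of 8.29 FPKM in 15M-MR and 11.0 FPKM in 5M-MR (-0.42, SE 0.16, adjusted p = 0.0585). Kl, which encodes alpha-Klotho and is made mostly in the choroid plexus, had medians of 1.13 FPKM in 15M-MR and 1.18 FPKM in 5M-MR (-0.26, SE 0.37, adjusted p = 0.646). Fgf21 itself and Klb, which encodes beta-Klotho, had no locus among those described.

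Chaperones of the cytosol went both ways, with 2 of 16 loci higher and 2 lower, against 4.52% and 8.13% over all loci. Hsp90aa1, the inducible form of HSP90, lay between 458 and 643 FPKM (median 529.9) in 15M-MR and between 241 and 453 FPKM (median 339) in 5M-MR (0.73, SE 0.177, adjusted p = 0.00678). Hsp90ab1, the constitutive form, lay between 428 and 530.2 FPKM (median 483) in 15M-MR and between 531 and 796 FPKM (median 586) in 5M-MR (-0.32, SE 0.105, adjusted p = 0.0323). Neither gene overlapped between the groups, but Hsp90ab1 lost its call without 5M-MR library 4 or 15M-MR library 15 (adjusted p up to 0.0883). Both calls stood with the length trend removed. The small heat shock protein Hspb1 (0.68, adjusted p = 0.0243) and Dnajb1, a partner of HSP70 (-0.44, adjusted p = 0.033), were called with less margin and lost their calls in the corrected values (adjusted p = 0.274 and 0.0708) and without any 1 of 3 and 5 libraries. None of 14 chaperones of the endoplasmic reticulum passed the test (median -0.01).

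At the synapse few of the listed genes passed. Of 21 presynaptic loci 2 were lower (median -0.32), against 8.13% over all loci. Vamp2, the vesicle SNARE, had medians of 339 FPKM in 15M-MR and 485 FPKM in 5M-MR (-0.49, SE 0.161, adjusted p = 0.0294). Of 18 loci of the glutamatergic postsynapse 3 were lower (median -0.37), against 8.13% over all loci. They were the scaffold Dlg2 (-0.52, adjusted p = 0.0112), the kinase Camk2a (-0.61, adjusted p = 0.0287) and the adhesion protein Nlgn3 (-1.18, adjusted p = 0.0482). Camk2a lay between 203 and 284 FPKM in 15M-MR and between 341 and 450.1 FPKM in 5M-MR, with no overlap. Once the length trend was removed none of these 3 calls stood, and 3 glutamate receptor genes were called higher, against 1.69% over all loci. They were Gria2 (0.56, adjusted p = 0.0348), Grin2b (0.75, adjusted p = 0.0354) and Grm5 (0.29, adjusted p = 0.0413). Without the correction these receptors differed by 0.40, 0.50 and 0.15 and did not pass (adjusted p = 0.078, 0.207 and 0.289). Leaving out single libraries ended the calls of Vamp2 and Camk2a in 4 and of Nlgn3 in 11 of 15 cases.

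Of 26 voltage-gated channel loci 2 were lower (median -0.06), against 8.13% over all loci. Cacna1e, an R-type calcium channel, was near 0.1 FPKM in 15M-MR libraries 6, 7 and 15 and between 3.91 and 11.3 FPKM in the other 5, against 8.65 to 16.1 FPKM in 5M-MR (-1.92, SE 0.586, adjusted p = 0.0223). Its highest 15M-MR libraries, 3 and 8, lay within the 5M-MR range.

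Of 11 loci of the GABA-A receptor, the main inhibitory receptor, 2 were higher and 1 lower, against 4.52% and 8.13% over all loci. The median was -0.10, close to that of all loci, with 4 loci above 0 and 7 below. Gabra2, the alpha-2 subunit on chromosome 5 (70957597 to 71095849, GENCODE M21 on GRCm38), lay between 7.46 and 21.7 FPKM (median 16.2) in 15M-MR and between 3.50 and 7.09 FPKM (median 4.79) in 5M-MR. The groups did not overlap (1.41, SE 0.278, adjusted p = 0.00173), and the call stood with the length trend removed (1.53, adjusted p = 0.002). On the control diet it differed by 1.36 (adjusted p = 0.0137), with medians of 14.4 FPKM in 15M-CD and 4.51 FPKM in 5M-CD, and in 18M-MR its median was 6.91 FPKM. Gabra2 is known to be low in C57BL/6J mice through an intronic deletion that arose in this substrain. Gabrb2, the beta-2 subunit, had medians of 21.4 FPKM in 15M-MR and 14.8 FPKM in 5M-MR with no overlap (0.62, SE 0.169, adjusted p = 0.0122). Gabrd, the delta subunit of receptors outside the synapse, had medians of 5.64 FPKM in 15M-MR and 8.502 FPKM in 5M-MR (-0.56, adjusted p = 0.0367; ended without any 1 of 8 libraries; with the length trend removed, adjusted p = 0.0724).

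Other loci known to vary among C57BL/6 substrains, and loci near 0 at 15 months, were followed through all 6 groups. Nnt, a mitochondrial transhydrogenase that is truncated in C57BL/6J, had a median of 5.65 FPKM in 15M-MR and 3.27 FPKM in 5M-MR (0.50, adjusted p = 0.0492; ended without any 1 of 13 libraries), 5.52 FPKM in 15M-CD, 3.17 FPKM in 5M-CD and 3.33 FPKM in 18M-MR. Wdfy1, an adaptor of Toll-like receptors, had medians of 4.18 FPKM in 15M-MR and 2.65 FPKM in 5M-MR and did not pass (0.10, adjusted p = 0.871). Of the table's loci, 13 had a median of at least 1 FPKM in 5M-MR and stood below 0.5 FPKM in every 15-month library of either diet. Of these 9 had no symbol and 3 were among the loci described, all 3 called lower. Their direction was fixed by this choice, so their calls and p-values add no support. Gm13304, a predicted gene, lay between 0.0152 and 0.0595 FPKM in 15M-MR and between 3.75 and 9.37 FPKM in 5M-MR (-2.52, adjusted p = 7.07e-07). Its medians were 0.0194 FPKM in 15M-CD and 5.66 FPKM in 5M-CD, and 4.22 FPKM in 18M-MR and 3.22 FPKM in 18M-CD. The loci LOC100041599/LOC101055676 and Gm10601/Gm21075/Gm29801/Gm29804 followed the same order, with medians of 0.0955 and 0.0282 FPKM in 15M-MR, 2.77 and 1.84 FPKM in 5M-MR, and 2.49 and 1.95 FPKM in 18M-MR. These 3 loci, chosen for being near 0 in both 15-month groups, were not near 0 in the medians of 18M-MR. Such families of near-identical copies are uncertain in their read assignment.

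A microglial gene, Olfml3, held the smallest adjusted p among named genes that rose. Olfml3, an extracellular protein made by microglia (chromosome 3, 103722222 to 103738001), lay between 6.49 and 11.3 FPKM (median 9.52) in 15M-MR and between 3.12 and 4.90 FPKM (median 4.14) in 5M-MR. The groups did not overlap (1.04, SE 0.127, adjusted p = 1.07e-06), and with the length trend removed the difference was 1.15 (adjusted p = 2.16e-06). On the control diet Olfml3 differed by 0.69 (adjusted p = 0.00472). Tmem119, a surface protein of resting microglia, lay between 5.80 and 10.4 FPKM (median 7.20) in 15M-MR and between 3.76 and 5.78 FPKM (median 5.03) in 5M-MR, with no overlap (0.52, SE 0.124, adjusted p = 0.00623). Of the 10 loci of homeostatic microglia 2 were called, both higher (median 0.39), against 4.52% higher over all loci, and both stood with the length trend removed. The summed FPKM of these loci lay between 57.5 and 89.0 (median 85.3) in 15M-MR and between 52.0 and 76.8 (median 59.3) in 5M-MR, so the sums overlapped.

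Fcer1g, a signalling chain of immune receptors, lay between 16.6 and 27.4 FPKM (median 22.03) in 15M-MR and between 10.4 and 15.5 FPKM (median 12.3) in 5M-MR (0.72, SE 0.133, adjusted p = 0.000846). Cyba, which encodes the p22phox chain of phagocyte oxidase, had medians of 13.9 FPKM in 15M-MR and 7.74 FPKM in 5M-MR (0.75, SE 0.152, adjusted p = 0.00234). Both have short transcripts, and with the length trend removed their adjusted p were 0.0542 and 0.054. Tyrobp, the partner of Trem2 (0.64, adjusted p = 0.0361), and the complement chains C1qa (0.46, adjusted p = 0.037) and C1qb (0.47, adjusted p = 0.0364) lost their calls in the corrected values (adjusted p = 0.397, 0.483 and 0.415) and without any 1 of 9, 8 and 8 libraries. One of 2 loci of Trem2, a receptor of activated microglia, was called (0.58, adjusted p = 0.0322; ended without any 1 of 7 libraries), and the other was not (-0.53, adjusted p = 0.563). Apart from Trem2 and Tyrobp none of the 12 loci of disease-associated microglia was called (median 0.16), so 2 of 12 were higher, against 4.52% over all loci.

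Of the astrocyte list 1 of 11 loci was called, lower, against 8.13% lower over all loci. It was Atp1b2, a sodium pump subunit, which had medians of 115 FPKM in 15M-MR and 191 FPKM in 5M-MR (-0.63, SE 0.199, adjusted p = 0.0261; with the length trend removed, adjusted p = 0.0789; ended without 15M-MR library 7 or 5M-MR library 8). S100b, a calcium-binding protein of astrocytes and oligodendrocytes, lay between 40.6 and 73.1 FPKM (median 47.7) in 15M-MR and between 22.9 and 33.8 FPKM (median 25.6) in 5M-MR, with no overlap (0.82, SE 0.154, adjusted p = 0.00121). Mt3, the brain metallothionein that binds zinc, lay between 817 and 1347 FPKM (median 1026) in 15M-MR and between 525.95 and 812 FPKM (median 653) in 5M-MR (0.69, SE 0.125, adjusted p = 0.000674). Both calls stood with the length trend removed (0.63 for S100b, adjusted p = 0.00715, and 0.34 for Mt3, adjusted p = 0.0159).

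In the oligodendrocyte lineage 2 of 7 loci rose, against 4.52% over all loci, and 1, Olig2, was called with the length trend removed. Olig2, a factor of the whole lineage, had medians of 8.23 FPKM in 15M-MR and 5.81 FPKM in 5M-MR (0.48, SE 0.128, adjusted p = 0.0106). Olig1, its neighbour, had 47.3 FPKM in 15M-MR and 33.8 FPKM in 5M-MR (0.44, adjusted p = 0.0431; ended without any 1 of 13 libraries; with the length trend removed, adjusted p = 0.115). Of 17 loci of mature oligodendrocytes and myelin 1 was called, higher, against 4.52% higher over all loci. It was Ppp1r14a, an inhibitor of a myosin phosphatase, with medians of 31.2 FPKM in 15M-MR and 15.6 FPKM in 5M-MR (0.96, SE 0.253, adjusted p = 0.0103; with the length trend removed, adjusted p = 0.0636). Cmtm5, a membrane protein of myelinating cells, had medians of 10.1 FPKM in 15M-MR and 6.55 FPKM in 5M-MR (0.60, SE 0.125, adjusted p = 0.00311), and its corrected adjusted p was 0.0703. The summed FPKM of the myelin loci overlapped widely, from 488 to 1541 in 15M-MR and from 454 to 1130 in 5M-MR.

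Of 75 loci of the cytosolic ribosome 23 rose and none fell, with a median difference of 0.31, against 4.52% higher over all loci. The calls lay between 0.36 and 0.81 in size. Rpl31 had medians of 215 FPKM in 15M-MR and 135 FPKM in 5M-MR (0.55, SE 0.157, adjusted p = 0.015). The median transcript of these loci is 1120 bases long. With the length trend removed the median was 0.07, with 3 loci higher, Rps20 (0.59, adjusted p = 0.0172), Rpsa (0.35, adjusted p = 0.0239) and Rpl35a (0.50, adjusted p = 0.0446), and 1 lower, against 1.69% and 4.97% of all loci. Rpl31 was no longer called in those values (adjusted p = 0.0521), and the uncorrected call of Rpl35a ended without any 1 of 3 libraries (up to 0.0814). With the share of loci without a symbol as a covariate 4 loci were called.

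Nuclear subunits of oxidative phosphorylation, the respiratory chain of mitochondria, had 21 of 76 loci higher and 3 lower (median 0.23), against 4.52% and 8.13% over all loci. With the no-symbol share as a covariate 18 were higher and none lower. With the length trend removed 7 were higher and 6 lower, against 1.69% and 4.97% over all loci, and the median was -0.02. Among the higher ones that stood were Atp5j2, with medians of 276 FPKM in 15M-MR and 171 FPKM in 5M-MR (0.65, SE 0.144, adjusted p = 0.00423; corrected 0.57, adjusted p = 0.00519), Atp5e (0.64, adjusted p = 0.00623; corrected 0.49, adjusted p = 0.00888) and Ndufb2 (0.56, adjusted p = 0.00651; corrected 0.66, adjusted p = 0.013). Uqcr11, a small subunit of complex III, had medians of 312 FPKM in 15M-MR and 202 FPKM in 5M-MR (0.68, SE 0.153, adjusted p = 0.00458; corrected 0.34, adjusted p = 0.0166). The 3 lower loci encode core subunits. Ndufv1 of complex I differed by -0.34 (adjusted p = 0.024), Sdha of complex II by -0.46 (adjusted p = 0.0222) and 1 of 2 loci of Atp5a1 of the ATP synthase by -0.37 (adjusted p = 0.0349), and each was still called after the length correction (adjusted p = 0.00888, 0.0376 and 0.0471) but not with the no-symbol covariate. Ndufv1 lost its call without 5M-MR library 4 (adjusted p = 0.0604), Sdha without 15M-MR library 5 (0.0517) and Atp5a1 without any 1 of 6 libraries (up to 0.0854).

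**Figure D4:**
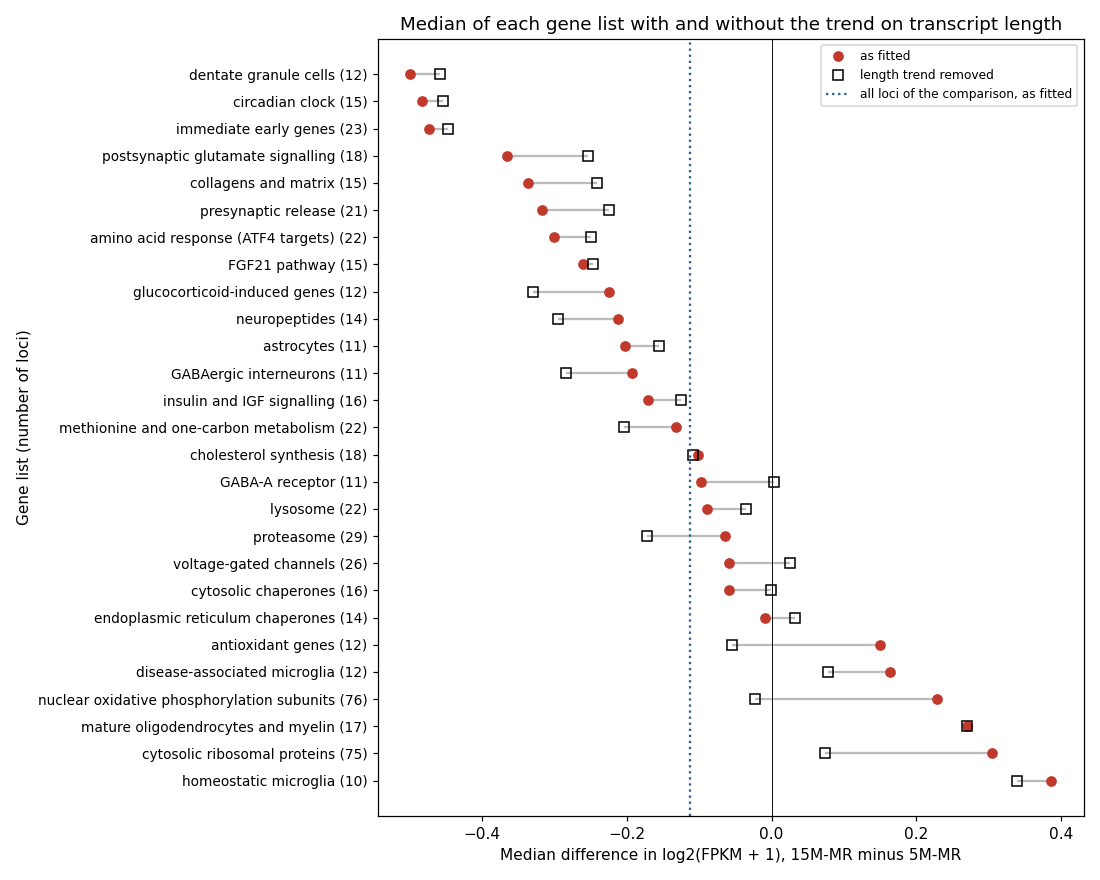
Median difference, 15M-MR minus 5M-MR, over the loci of each gene list with at least 10 loci, as fitted (red) and with the length trend removed (open squares); the dotted line is the median of all loci, -0.11. Ribosomal and oxidative phosphorylation genes move from 0.31 and 0.23 to 0.07 and -0.02, while immediate early genes stay near -0.45.

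In the insulin and IGF list 3 of 16 loci were lower and 1 higher, against 8.13% and 4.52% over all loci. Foxo3, a factor held back by insulin, had medians of 4.16 FPKM in 15M-MR and 6.06 FPKM in 5M-MR (-0.49, SE 0.127, adjusted p = 0.00902). The growth kinase Mtor had medians of 3.84 FPKM in 15M-MR and 5.30 FPKM in 5M-MR (-0.38, adjusted p = 0.0237; without 5M-MR library 6, adjusted p = 0.0502), and Igfbp4 differed by -0.46 (adjusted p = 0.0363; ended without any 1 of 8 libraries). Igfbp7, an IGF-binding protein of vessels, lay between 16.4 and 26.7 FPKM in 15M-MR and between 11.5 and 14.4 FPKM in 5M-MR (0.52, SE 0.147, adjusted p = 0.0146). With the length trend removed none of these 4 was called. Of 18 loci of cholesterol synthesis 1 was lower and 1 higher, against 8.13% and 4.52% over all loci. Srebf2, the main regulator of this synthesis, was lower (-0.84, adjusted p = 0.0333; ended without any 1 of 6 libraries). Pmvk, an enzyme of the mevalonate pathway, was higher (0.40, adjusted p = 0.0126), and neither stood after the correction.

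Of 22 lysosomal loci 2 were lower and none higher, against 8.13% and 4.52% over all loci. Psap, the precursor of the saposins that help break down lipids, lay between 193 and 239 FPKM in 15M-MR and between 258 and 310.3 FPKM in 5M-MR (-0.35, adjusted p = 0.0304), and Ctsf, a cysteine protease, between 10.3 and 15.5 FPKM in 15M-MR and between 15.6 and 19.4 FPKM in 5M-MR (-0.39, adjusted p = 0.0239). The groups did not overlap for either, and both calls stood with the length trend removed (adjusted p = 0.0354 and 0.0286). Psap lost its call without any 1 of 5 libraries and Ctsf without 15M-MR library 4 (adjusted p = 0.0529). In the proteasome 1 of 29 loci was lower and none higher, against 8.13% and 4.52% over all loci. It was Psmc1, an ATPase of the proteasome cap, with medians of 24.7 FPKM in 15M-MR and 32.6 FPKM in 5M-MR (-0.48, SE 0.11, adjusted p = 0.00489). With the length trend removed 5 proteasome loci were lower and none higher, against 4.97% and 1.69% over all loci. None of 12 antioxidant loci and none of 15 collagen and matrix loci passed (medians 0.15 and -0.34).

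Of the markers of dentate granule cells 1 of 12 loci was lower, of CA1 cells 1 of 8, of CA2 cells 1 of 6 and of CA3 cells 1 of 7, against 8.13% over all loci, and none of 4 subiculum loci passed. Npnt of dentate granule cells had medians of 2.56 FPKM in 15M-MR and 3.87 FPKM in 5M-MR (-0.55, adjusted p = 0.0294), and the 12 dentate loci had a median difference of -0.50. Wfs1 of CA1 cells had medians of 13.3 FPKM in 15M-MR and 22.8 FPKM in 5M-MR (-0.72, adjusted p = 0.0321). Ociad2 of CA3 cells lay between 26.0 and 35.9 FPKM in 15M-MR and between 37.9 and 55.2 FPKM in 5M-MR (-0.51, SE 0.141, adjusted p = 0.0129) and was the only 1 of the 3 called with the length trend removed (adjusted p = 0.0174). Most of the CA3 list went the other way, with a median difference of 0.29 over its 7 loci, 5 above 0 and 2 below. Single libraries ended the call in 4 cases for Npnt and 5 for Wfs1. Cacng5 of CA2 cells was listed at 0 in 4 of the 15M-MR libraries, below 0.05 FPKM in 3 more and at 2.70 FPKM in library 15, against 1.65 to 5.11 FPKM in 5M-MR (adjusted p = 0.00704). Its medians in 15M-CD and 5M-CD were 0.0210 and 0.0345 FPKM.

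Of markers of neighbouring tissue, 1 of 6 loci of the neocortex list was lower, against 8.13% lower over all loci. It was Cux1 (-0.50, adjusted p = 0.023; ended without 15M-MR library 6 or 5M-MR library 8; with the length trend removed, adjusted p = 0.297). No listed choroid plexus, ependymal, endothelial, meningeal, thalamic, striatal or hypothalamic marker passed. Genes outside these lists did, among them Plvap and Igfbp7 of vessels and Ogn of connective tissue. Summed FPKM of the 5 choroid plexus loci ranged from 52.0 to 969.9 (median 104) in 15M-MR and from 12.9 to 3140 (median 128) in 5M-MR. Of the interneuron list Slc32a1, the vesicular GABA transporter, had medians of 9.06 FPKM in 15M-MR and 15.6 FPKM in 5M-MR with no overlap (-0.61, adjusted p = 0.0398; ended without any 1 of 11 libraries; with the length trend removed, adjusted p = 0.0761). Cort, a neuropeptide of interneurons, had medians of 3.20 FPKM in 15M-MR and 5.58 FPKM in 5M-MR (-0.78, SE 0.197, adjusted p = 0.00792) and was also lower on the control diet (-0.98, adjusted p = 0.0127). In smaller lists Ap2s1, an adaptor subunit listed for mossy cells (0.41, adjusted p = 0.0222), and Srgn, a proteoglycan listed for reactive astrocytes (0.59, adjusted p = 0.0467), were higher and were not called after the correction. Ap2s1 lost its call without 5M-MR library 6 or 8 (adjusted p up to 0.0656) and Srgn without any 1 of 12 libraries (up to 0.09). Of the 50 lists with a locus 15 had no member called.

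The remaining genes with the smallest adjusted p were of mixed function. Among those that rose, Ogn, a small proteoglycan of connective tissue, lay between 1.90 and 5.23 FPKM (median 4.15) in 15M-MR and between 0.293 and 1.45 FPKM (median 0.757) in 5M-MR, with no overlap (1.44, SE 0.265, adjusted p = 0.000896). Thoc2, a subunit of the THO complex of mRNA export, lay between 3.71 and 8.69 FPKM (median 7.18) in 15M-MR and between 1.23 and 3.52 FPKM (median 2.06) in 5M-MR (1.26, SE 0.251, adjusted p = 0.00192). Lztfl1, which controls traffic of the BBSome in cilia, had medians of 2.32 FPKM in 15M-MR and 0.239 FPKM in 5M-MR (1.22, SE 0.233, adjusted p = 0.00137) and was also higher on the control diet (1.14, adjusted p = 0.0138). Gng13, a G protein gamma subunit (0.84, adjusted p = 0.00275), Rnaseh2c of ribonuclease H2 (0.78, adjusted p = 0.00311) and Aamdc (0.67, adjusted p = 0.00366) rose as well. Lamtor4, a subunit of the Ragulator at the lysosome, had a difference of 0.52 (adjusted p = 0.00315) and a corrected adjusted p of 0.0601. The locus that carries the symbol Mir703 had medians of 28.5 FPKM in 15M-MR and 16.04 FPKM in 5M-MR (0.80, adjusted p = 0.00316), which is not a measure of the mature microRNA. With the length trend removed Ogn, Thoc2, Lztfl1, Gng13, Rnaseh2c and Aamdc were all still called.

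Among those that fell, the merged locus Tmem254b/Tmem254c had the smallest adjusted p, with 2.96 to 3.92 FPKM in 15M-MR and 10.6 to 14.3 FPKM in 5M-MR (-1.56, SE 0.184, adjusted p = 7.07e-07). On the control diet it differed by -1.35 (adjusted p = 3.43e-05), and its median in 18M-MR was 9.26 FPKM. Entpd4/Gm21685 lay between 2.53 and 3.49 FPKM in 15M-MR and between 6.60 and 7.98 FPKM in 5M-MR (-0.97, SE 0.139, adjusted p = 2.95e-05). Both loci merge near-identical copies, among which reads may be split. Klhl34, a kelch protein on chromosome X (157818435 to 157820369), lay between 0.447 and 1.92 FPKM (median 0.758) in 15M-MR and between 3.21 and 8.19 FPKM (median 5.40) in 5M-MR (-1.73, SE 0.27, adjusted p = 9.32e-05). Myh10, nonmuscle myosin IIB, had medians of 10.1 FPKM in 15M-MR and 20.4 FPKM in 5M-MR (-0.81, SE 0.156, adjusted p = 0.00151). Tmem254b/Tmem254c, Klhl34 and Myh10 were among the 8 loci called with lane as a factor. Acvr1b, a receptor for activin, lay between 0.273 and 1.17 FPKM in 15M-MR and between 2.66 and 5.05 FPKM in 5M-MR (-1.67, SE 0.323, adjusted p = 0.00151). Eif4b, a factor of translation initiation, lay between 20.4 and 26.4 FPKM in 15M-MR and between 31.0 and 40.6 FPKM in 5M-MR (-0.58, SE 0.116, adjusted p = 0.00192). Ssx2ip, a protein of centrosomes (-0.61, adjusted p = 0.000872), and the merged locus Csrp2bp/Pet117 (-0.52, adjusted p = 0.00221) also fell without overlap. Dtx2, a Deltex ubiquitin ligase, was listed at 0 in all 8 15M-MR libraries and between 2.03 and 3.59 FPKM in 5M-MR (adjusted p = 0.00067). It was the only locus of the comparison listed at 0 in every 15M-MR library, and its median was 0 in 15M-CD and 18M-MR and 2.34 FPKM in 5M-CD.

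**Figure D5:**
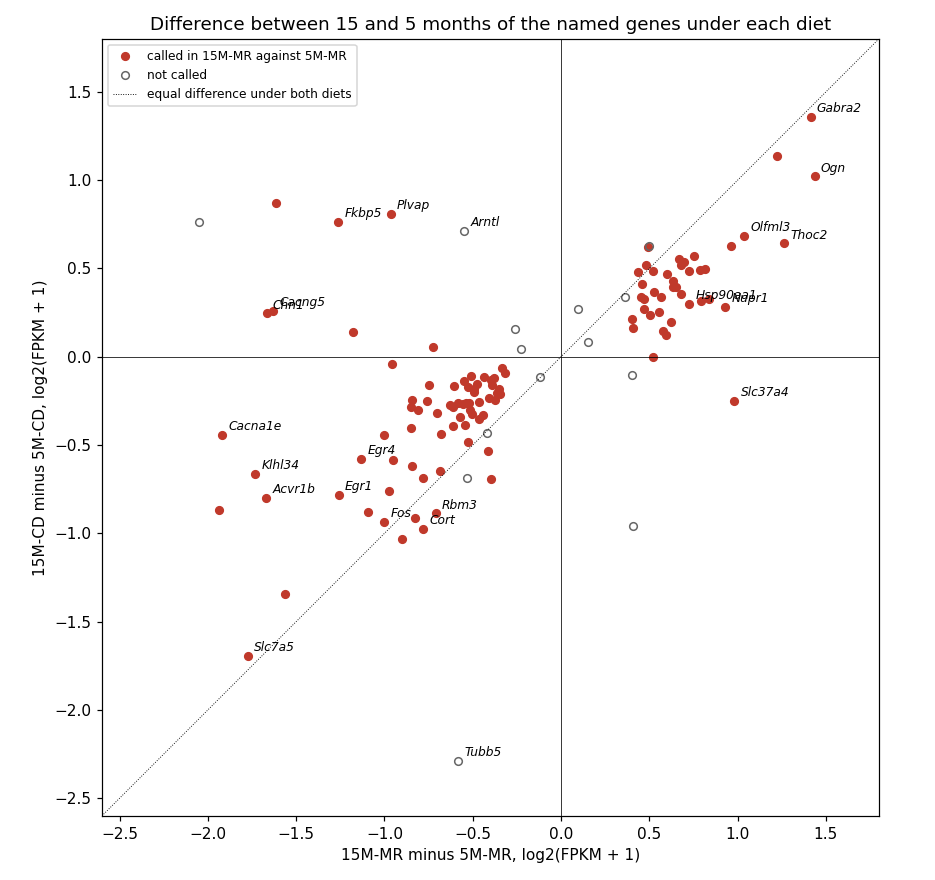
Difference between 15 and 5 months in log2(FPKM + 1) for the named loci, under MR (x axis, 15M-MR minus 5M-MR) and on the control diet (y axis, 15M-CD minus 5M-CD); filled points are called under MR and the dotted line marks equal differences. Most points lie on the same side of 0 under both diets, and Chn1, Cacng5, Fkbp5, Plvap and Slc37a4 are among those on opposite sides.

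Genes with the smallest p for a difference between diets are given as values, since none passed after adjustment (unadjusted p between 0.000484 and 0.00121, adjusted p = 0.891 for each of the 6). Chn1, a regulator of Rac in neurons on chromosome 2 (73610660 to 73775346), lay between 30.02 and 58.1 FPKM (median 45.9) in 15M-MR and between 109 and 202 FPKM (median 147) in 5M-MR, with no overlap (-1.67, SE 0.372, adjusted p = 0.0043). Its medians were 122 FPKM in 15M-CD and 95.6 FPKM in 5M-CD (interaction -1.91). The first of 3 loci of Tubb5, a beta tubulin, had medians of 8.23 FPKM in 15M-MR and 12.7 FPKM in 5M-MR, and of 8.96 FPKM in 15M-CD and 60.9 FPKM in 5M-CD (interaction 1.71). Its difference under MR did not pass (-0.58, adjusted p = 0.18), and the other 2 loci differed by -0.12 and 0.41. Slc37a4, a glucose-6-phosphate transporter, had medians of 2.92 FPKM in 15M-MR and 1.40 FPKM in 5M-MR (0.98, SE 0.245, adjusted p = 0.00768) and of 2.20 FPKM in 15M-CD and 2.27 FPKM in 5M-CD (interaction 1.23). Arntl, the clock activator BMAL1, had medians of 1.98 FPKM in 15M-MR and 3.18 FPKM in 5M-MR (-0.55, adjusted p = 0.111) and of 3.38 FPKM in 15M-CD and 2.20 FPKM in 5M-CD (interaction -1.26). Plvap, a protein of vessel walls, had medians of 0.165 FPKM in 15M-MR and 1.47 FPKM in 5M-MR (-0.97, adjusted p = 0.049, ended without any 1 of 12 libraries; with the length trend removed, adjusted p = 0.0636; interaction -1.77). The merged locus LOC100534390/Smchd1 was listed at 0 in 5 of the 15M-MR libraries and at 0.0107, 2.40 and 2.67 FPKM in the other 3, against 1.45 to 5.13 FPKM in 5M-MR (interaction -2.48).

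Levels of the 18M-MR group are given beside these only as values, since a comparison with 5M-MR would share its libraries. Medians of Fos were 2.74 FPKM in 15M-MR, 2.54 FPKM in 18M-MR and 7.37 FPKM in 5M-MR, and those of Egr1 17.1, 21.6 and 41.8 FPKM in the same groups. For Olfml3 they were 9.52 FPKM in 15M-MR, 6.76 FPKM in 18M-MR and 4.14 FPKM in 5M-MR. Ogn had 4.15 FPKM in 15M-MR, 0.988 FPKM in 18M-MR and 0.757 FPKM in 5M-MR, so that 18M-MR stood near 5M-MR. Asns had 25.8 FPKM in 15M-MR, 26.4 FPKM in 18M-MR and 34.6 FPKM in 5M-MR.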

How the data were processed

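Total RNA of hippocampus was sequenced on a BGI-500 instrument, per the labels' protocols. The submitters' processing notes name Trimmomatic 0.38, HISAT2, StringTie 1.3.4d and GRCm38.p6, with no roles. The deposited values are FPKM that the authors computed per assembled locus, so the depth is unknown and no counting interval can be given. Log2(FPKM + 1) of the 13009 loci at 1 FPKM or more in at least 6 of 44 libraries was fitted with limma 3.58.1 in R 4.3.3 (6 group means, all libraries, trended variance), and p-values were adjusted by Benjamini-Hochberg over all of them. Library measures were compared by exact permutation over 6435 assignments. Transcript lengths and coordinates are from GENCODE M21. For the length correction a spline with 4 degrees of freedom was removed from each library. Named genes are the 15 higher and 15 lower loci with the smallest adjusted p (predicted genes passed over), the 6 with the smallest interaction p, up to 4 of each gene list, the FGF receptors, the substrain list and loci near 0 at 15 months. Gria2, Grin2b, Grm5 and further ribosomal, respiratory and early genes were named after their values were seen, to account for all calls of a list. The loci and gene lists were chosen with earlier results of these data known. The limma fit was tested on simulated data of independent noise, with no effect of lane, transcript length or library. That test therefore does not bear on these effects. P-values measure the spread between libraries, 1 per mouse by the design's counts. Some results on items withheld from this text are not reported here.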

Additional observations from a re-analysis of the deposited data

Results flagged for a closer look

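Of 264 groups of libraries examined for a library that stands apart from the rest of its group (Dixon's criterion at 95%), 18 held one, where chance gives about 1 in 20. In 15M-MR, library 7 was low for Cry1 (0.579 FPKM), Wars (2.38 FPKM) and the second Errfi1 locus (0 FPKM), and library 2 was low for Per2 (0.444 FPKM), Cry2 (1.71 FPKM) and Nnt (1.12 FPKM). Also in 15M-MR, Olfml3 was low in library 3 (6.49 FPKM), Fos in library 8 (2.21 FPKM) and Cux1 in library 6 (1.92 FPKM). S100b was high in 15M-MR library 5 (73.1 FPKM), and Cacng5 (2.70 FPKM) and Ttr (899.5 FPKM) were high in 15M-MR library 15. In 5M-MR, library 4 was high for Psmc1 (50.7 FPKM) and Hsp90ab1 (796 FPKM), library 8 was high for Fgfr3 (17.6 FPKM), and library 10 was low for Srebf2 (12.4 FPKM). The 2 loci of Trem2 stood apart in 5M-MR library 7 in opposite directions, at 7.38 FPKM and at 0 FPKM. Among the 3051 loci without a gene symbol, which the comparisons above leave out, 1109 (36.3%) were higher and 40 (1.31%) lower in 15M-MR than in 5M-MR (limma, adjusted p under 0.05), against 4.52% and 8.13% of the loci with a symbol.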

How the results depend on the processing

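The counts of 434 higher and 781 lower loci in 15M-MR moved with several settings. With lane as a factor they were 1 and 7, with the mitochondrial rRNA share as a covariate 191 and 133, without the 5M-MR libraries of high Ttr 65 and 143, with array weights 1061 and 1819, and with the length trend removed 146 and 429. Loci with a transcript length alone gave 268 higher, the covariate of loci without a symbol 257 lower, and a fit of the 2 groups alone 1270 lower. The mitochondrial, Ttr and transcript-length settings were chosen after seeing the data, and the cause of these shifts was not tested. Leaving out 1 library gave 221 to 489 higher and 502 to 769 lower. Interaction calls, 0 as fitted, were 1 with lane, 2 with array weights and 0 to 1 with 1 library left out. The replicate block on the title number gave 256 and 439, and 67 and 193 with the length trend removed as well. Same-numbered libraries of the 2 groups correlated at -0.165 to 0.162, and of 6 numbers only 5 correlated best with itself, so the numbers do not pair the libraries. Of 112 named loci with a call, 70 kept it in every leave-one-out fit, 67 of 107 with the length trend removed and 3 with lane. With the no-symbol covariate 64 kept it, with the mitochondrial covariate 46 and without the 5M-MR libraries of high Ttr 43. The block with length left 49 of 107. Among those that lost their call without the libraries of high Ttr were Tmem119, Cry1, Gabrb2, Ociad2 and Atp5j2. Among loci that did not pass, the sign turned for Wdfy1 with pseudocount 0.1 (-0.0822), quantile normalization (-0.0487), the block (-0.12), the block with length (-0.0141), the no-symbol covariate (-0.0147), array weights (-0.14) and without 15M-MR library 3 (range with 1 library left out -0.00993 to 0.311). It also turned for Grm5 (-0.0808) and Tubb5 (0.42) with lane, Fgfr1 with the mitochondrial covariate (0.0841), and Kl with the no-symbol covariate (0.13) and without high Ttr (0.36). Depth is unknown, so loci near 0 cannot be told from loci not sampled.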
